A study of Mus musculus with 45 samples.

Results

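The vascular endothelial growth factor (VEGF) and angiopoietin genes described here are 10 genes, chosen by name: the VEGF ligands Vegfa, Vegfb and Vegfc, their receptors Flt1, Kdr and Flt4, the angiopoietins Angpt1 and Angpt2, and the Tie receptors Tek and Tie1. All 10 were among the 23284 gene symbols measured by poly(A) RNA-seq in 6 libraries of mouse heart. Adult heart had 2 libraries. E12.5 heart (a midgestation embryonic stage), E12.5 heart labelled Gata4 KO, heart labelled banding and heart labelled sham had 1 library each. Banding constricts an artery so that the heart pumps against more load, and sham is the same surgery with no constriction. The labels give neither the artery nor the age for these hearts. RNA was pooled before each library was made. The protocols of the series name a tagged Gata4 allele (Gata4fbio), the biotin ligase allele Rosa26BirA, a floxed Gata4 allele and cTNTcre, a Cre driven by the cardiac troponin T promoter and so directed at cardiomyocytes, but not which library carried which. The series relates Gata4 binding and histone marks to expression in these hearts.

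VEGF ligands are secreted proteins that bind receptor tyrosine kinases on endothelial cells. Kdr carries most of the signal for growth and sprouting of blood vessels, Flt1 binds Vegfa tightly and can act as a decoy, and Flt4 with its ligand Vegfc directs lymphatic vessels. Angpt1, made by mural and other supporting cells, activates the receptor Tek and steadies vessels, Angpt2 from endothelial cells can oppose it, and Tie1 is a partner of Tek without a well defined ligand of its own. In the heart, cardiomyocytes are a known source of Vegfa and Vegfb.

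The libraries held 12086929 to 21056784 mapped reads, recovered from the values. Levels below are log2(FPKM + 1), where FPKM is fragments per kilobase of transcript scaled to the mapped reads of the library, so levels of different genes may be compared. Reads on listed genes made up 75.9% to 83.9% of mapped reads in the adult and E12.5 libraries, but 58.1% in banding and 55.6% in sham, and the ribosomal RNA precursor Rn45s stood at 12.96 and 12.94 in banding and sham against 6.21 to 8.94 elsewhere. The median gene at 5 FPKM lay 0.74 lower in sham than in adult and 1.28 lower than in E12.5, and these features of the libraries cannot be told apart from the surgery. All 8 cardiomyocyte markers were present in every library, with summed FPKM between 23717 and 51217. Gata4 stood at 6.13 in the library labelled Gata4 KO and 5.93 in E12.5, so it was not lower where the label says knockout. The deposited value is per gene and does not show which exons the reads came from, so directions drawn from that library rest on its label.

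Vegfb was the highest of the 10 genes in all libraries but that labelled Gata4 KO, where Tie1 stood above it. In adult heart the order was Vegfb (8.81 ± 0.06), Vegfa (6.41 ± 0.21), Flt1 (5.83 ± 0.19), Kdr (5.77 ± 0.28), Tek (4.69 ± 0.07), Tie1 (4.39 ± 0.14), Angpt1 (3.90 ± 0.39), Flt4 (2.33 ± 0.12), Angpt2 (1.98 ± 0.001) and Vegfc (1.57 ± 0.03), each a mean ± SD with n = 2. Flt1 and Kdr overlapped between the adult libraries and could not be ordered, and no other neighbours in this list overlapped. In E12.5 the order was Vegfb (6.24), Tie1 (5.35), Vegfa (4.93), Tek (4.76), Angpt1 (4.23), Kdr (4.18), Flt1 (2.95), Flt4 (2.59), Vegfc (2.5) and Angpt2 (0.55). The Tie receptors thus stood above the VEGF receptors in the embryo and below Flt1 and Kdr in the adult. Vegfb lay at the 99.4 percentile of genes above 0 in each adult library.

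**Figure D1:**
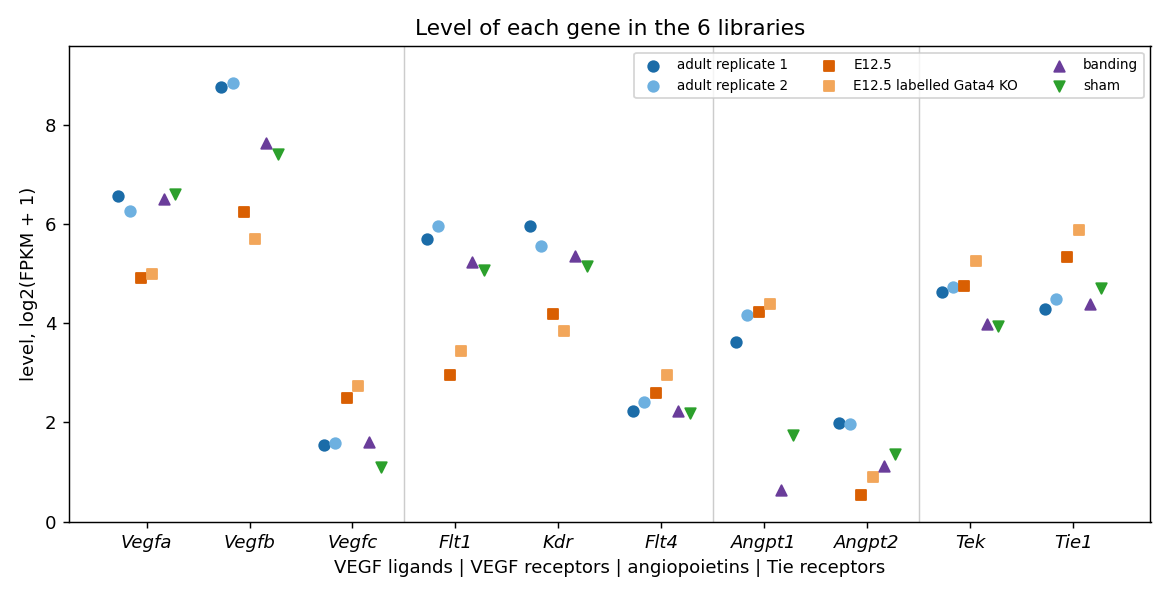
Levels of the 10 genes, as log2(FPKM + 1) on the vertical axis, with 1 point per library. Vegfa, Flt1 and Kdr lie higher in the adult, banding and sham libraries than in both E12.5 libraries, and Angpt1 lies at 0.64 in banding and 1.75 in sham against 3.63 to 4.397 elsewhere.

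The adult heart was compared with the E12.5 heart to ask how the vascular signalling genes change from embryo to adult. Vegfa, Vegfb, Flt1 and Kdr rose in adult heart, as did the sparsely counted Angpt2. Vegfc and Tie1 fell, and Flt4, Tek and Angpt1 did not pass the test. The test was limma with Benjamini-Hochberg adjustment over 12658 genes, at an adjusted p under 0.05. It rests on the spread of the adult pair, which the single E12.5 library is taken to share. The labels do not say whether the adult pair came from separate animals, so the p-values reflect no more than the spread within this set of libraries, possibly a technical one. Of all genes tested 71.8% were called, 23.4% higher and 48.4% lower in adult, beside 5 and 2 of the 10. One of the 5 is Angpt2, which passed the filter on low genes only through the adult libraries where it is high and so had to differ. By a rule of size, 2-fold or more in FPKM where the higher library reached 5 FPKM, 0.588% of genes differed between the adult replicates. All 10 passed the filter of 1 FPKM in at least 1 library. The median difference of the 10 genes was 0.68, against -0.51 over all genes tested. With 5 genes above 0 and 5 below, that median is the midpoint of Tek (-0.07) and Angpt2 (1.43), so nothing is read from it. After upper-quartile scaling 33.0% of genes were called higher and 36.4% lower, after median-of-ratios scaling 33.5% and 35.7%, and in both 6 of the 10 were called higher and 2 lower.

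Of the VEGF ligands, Vegfa, the main growth and permeability factor of blood vessels, stood at 6.56 and 6.26 in adult and 4.93 in E12.5. It rose by 1.48 (SE 0.18, limma adjusted p = 0.0137), 2.88-fold in FPKM, and both adult libraries lay above E12.5. Vegfb, a ligand of Flt1 that is abundant in heart muscle, stood at 8.76 and 8.85 in adult and 6.24 in E12.5. It rose by 2.57 (SE 0.08, limma adjusted p = 0.00398), 6-fold in FPKM, the steepest rise of the ligands. Vegfc, the lymphatic ligand, went the other way, at 1.55 and 1.60 in adult and 2.5 in E12.5. Its fall of 0.92 (SE 0.11, limma adjusted p = 0.0142) rests on 46 and 47 reads in adult and 184 in E12.5, and after upper-quartile and median-of-ratios scaling the difference was -0.524 and -0.518 (limma adjusted p = 0.0343 and 0.0377).

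Of the VEGF receptors, Flt1 stood at 5.70 and 5.97 in adult and 2.95 in E12.5. It rose by 2.88 (SE 0.17, limma adjusted p = 0.00552), 8.35-fold in FPKM and the largest change of the 10 genes. Kdr, the main signalling receptor, stood at 5.97 and 5.56 in adult and 4.18 in E12.5. It rose by 1.58 (SE 0.23, limma adjusted p = 0.0191), and with no filter on low genes its limma adjusted p was 0.0611. Flt4, the lymphatic receptor, stood at 2.24 and 2.41 in adult and 2.59 in E12.5, a difference of -0.27 (SE 0.15, limma adjusted p = 0.211). The sign of that difference depended on scaling, with 0.13 after upper-quartile scaling. With both E12.5 libraries as one group it was -0.45 (limma adjusted p = 0.0471), where 25.9% of all genes were called higher and 52.6% lower in adult. The grouped libraries carry different labels, E12.5 and E12.5 labelled Gata4 KO, and are not replicates, so nothing further is read from that p-value.

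Angpt1 stood at 3.63 and 4.18 in adult and 4.23 in E12.5, and the spread of the adult pair was larger than their mean difference from E12.5 (-0.33, SE 0.31, limma adjusted p = 0.409). Angpt2 stood at 1.98 in each adult library and 0.55 in E12.5. The difference was 1.43 (SE 0.09, limma adjusted p = 0.00625), with 92 and 90 reads in adult and 24 in E12.5, and since the filter let it in through adult alone, its call supports nothing further. Tie1 stood at 4.29 and 4.49 in adult and 5.35 in E12.5 and fell by 0.96 (SE 0.13, limma adjusted p = 0.0171). After upper-quartile and median-of-ratios scaling its differences were -0.485 and -0.466 (limma adjusted p = 0.0457 and 0.0435). Its partner Tek stood at 4.64 and 4.74 in adult and 4.76 in E12.5, a difference of -0.07 (SE 0.09, limma adjusted p = 0.526). On a scale set by the other genes Tek was higher in adult, by 0.40 after upper-quartile scaling (limma adjusted p = 0.0346) and by 0.42 after median-of-ratios scaling (limma adjusted p = 0.0299). The 7 genes called as deposited kept their direction and call under each of these scalings.

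**Figure D2:**
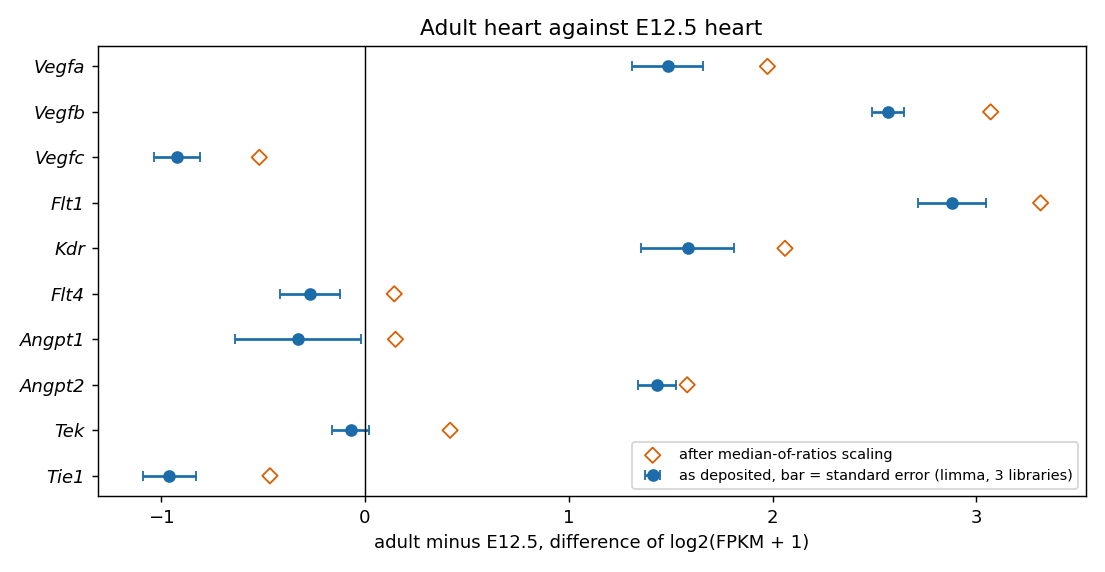
Adult minus E12.5 difference of log2(FPKM + 1) for the 10 genes, with limma standard errors as bars and the value after median-of-ratios scaling as open diamonds. Flt1 (2.88) and Vegfb (2.57) show the largest rises, and Flt4, Angpt1 and Tek lie on opposite sides of 0 under the 2 scalings.

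The sequences just before the annotated start are shown for 3 genes that rose (Vegfa, Flt1 and Kdr) and for Tie1, which fell, since Gata4, hypoxia-inducible factors and ETS factors are known regulators in heart muscle or endothelium. RefSeq (GRCm38.p6) windows were matched for 8 of the 10 genes, Angpt1 and Angpt2 having none used here. Each line gives the 250 bases before the start, 5′ to 3′ on the gene's strand, at chr17:46032378-46032627 (minus strand) for Vegfa, chr5:147726012-147726261 (minus) for Flt1, chr5:75978456-75978705 (minus) for Kdr and chr4:118489850-118490099 (minus) for Tie1. Capitals mark matches, read on either strand, to the motif AGATAA, which is recognised by Gata family factors in many heart genes. Capitals also mark matches to GGAAG, the core of the motif that ETS factors bind in endothelial genes. The core of the hypoxia response element, ACGTG, was searched in the same way and was not found in these 4 windows. A further Vegfa window in the RefSeq table, at chr17:46025164-46025413 (minus strand), held 1 match to ACGTG and 1 to GGAAG.
Vegfa: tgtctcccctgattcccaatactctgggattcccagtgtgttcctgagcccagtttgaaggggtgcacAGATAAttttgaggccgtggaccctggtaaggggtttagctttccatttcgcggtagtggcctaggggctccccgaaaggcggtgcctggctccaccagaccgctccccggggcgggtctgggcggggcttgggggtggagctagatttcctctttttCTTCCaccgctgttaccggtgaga
Flt1: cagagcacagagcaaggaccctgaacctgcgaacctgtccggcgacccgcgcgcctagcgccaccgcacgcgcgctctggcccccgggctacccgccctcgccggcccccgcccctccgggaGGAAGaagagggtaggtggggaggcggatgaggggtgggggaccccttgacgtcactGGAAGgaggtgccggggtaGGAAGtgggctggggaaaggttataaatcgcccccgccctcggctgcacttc
Kdr: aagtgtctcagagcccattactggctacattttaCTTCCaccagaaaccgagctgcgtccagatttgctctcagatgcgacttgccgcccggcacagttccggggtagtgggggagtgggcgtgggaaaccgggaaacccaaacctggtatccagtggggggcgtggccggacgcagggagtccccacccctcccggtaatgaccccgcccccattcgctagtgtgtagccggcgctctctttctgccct
Tie1: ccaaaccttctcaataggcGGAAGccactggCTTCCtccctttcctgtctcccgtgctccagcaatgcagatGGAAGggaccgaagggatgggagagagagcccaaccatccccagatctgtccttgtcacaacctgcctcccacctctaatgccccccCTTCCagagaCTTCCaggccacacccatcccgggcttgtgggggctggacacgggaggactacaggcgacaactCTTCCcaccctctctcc
Tie1 held 6 matches to GGAAG, Flt1 held 3, and Vegfa, Kdr and Flt4 held 1 each in the window at the first listed start. Vegfb, Vegfc and Tek held none of the 3 motifs. AGATAA occurred only in the first Vegfa window among the 9 windows of the 8 genes, and 9.99% of all 32851 windows of this length hold it. GGAAG is in 64.1% of all windows and ACGTG in 16.6%. A match is a description of letters and not evidence of a bound site.

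Levels within a library are free of its scaling, and ratios of gene pairs showed how the balance among ligands and receptors differed between libraries. Intervals are exact 95% conditional binomial intervals from recovered reads and cover counting error only. Vegfa stood below Vegfb in every library, at 0.216 (0.208 to 0.224) and 0.164 (0.157 to 0.171) of its FPKM in adult, 0.394 (0.371 to 0.419) in E12.5, 0.607 (0.565 to 0.654) for the library labelled Gata4 KO, 0.571 (0.544 to 0.6) for sham and 0.458 (0.438 to 0.479) for banding. The adult pair held the lowest ratios. Vegfa exceeded Vegfc by 48.3 and 37.4 times in adult, 6.33 times in E12.5, 5.5 times for the library labelled Gata4 KO, 44.3 times in banding and 84.7 times in sham. The embryonic libraries thus held relatively more of the lymphatic ligand than the other libraries did.

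The ratio of Flt1, the decoy-like receptor, to Kdr was 0.393 (0.363 to 0.426) for E12.5, 0.734 (0.677 to 0.796) for the library labelled Gata4 KO, 0.945 for sham and 0.924 for banding. In adult it was 0.827 (0.792 to 0.863) in replicate 1 and 1.33 (1.27 to 1.4) in replicate 2. The intervals of the adult replicates do not overlap, so replicate error in this ratio exceeds counting error. Flt4 stood at 0.294 of Kdr for E12.5 and 0.506 for the library labelled Gata4 KO, against 0.0607 and 0.0931 in adult, 0.0931 in banding and 0.103 in sham. Vegfa per Kdr varied less, from 1.52 in adult replicate 1 to 2.81 in sham, with 1.71 in E12.5.

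Tie1 exceeded Tek in both E12.5 libraries (1.52 and 1.56), in banding (1.33, 1.22 to 1.45) and in sham (1.75, 1.6 to 1.91), and stood below it in adult (0.772 and 0.833). On this ratio sham lay nearer to E12.5 than to the unoperated adult pair. The ratio of Angpt2 to Angpt1, the balance of context-dependent antagonist to agonist, was 0.0259 (0.0165 to 0.0387) for E12.5 and 0.043 for the library labelled Gata4 KO. It was 0.259 (0.205 to 0.323) and 0.172 (0.137 to 0.214) in adult, 0.667 (0.465 to 0.944) in sham and 2.11 (1.3 to 3.46) in banding, the only library where Angpt2 stood above Angpt1. Angpt1 per Tek, ligand against receptor, ran from 0.475 to 0.681 in the adult and E12.5 libraries and was 0.163 in sham and 0.0376 in banding.

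**Figure D3:**
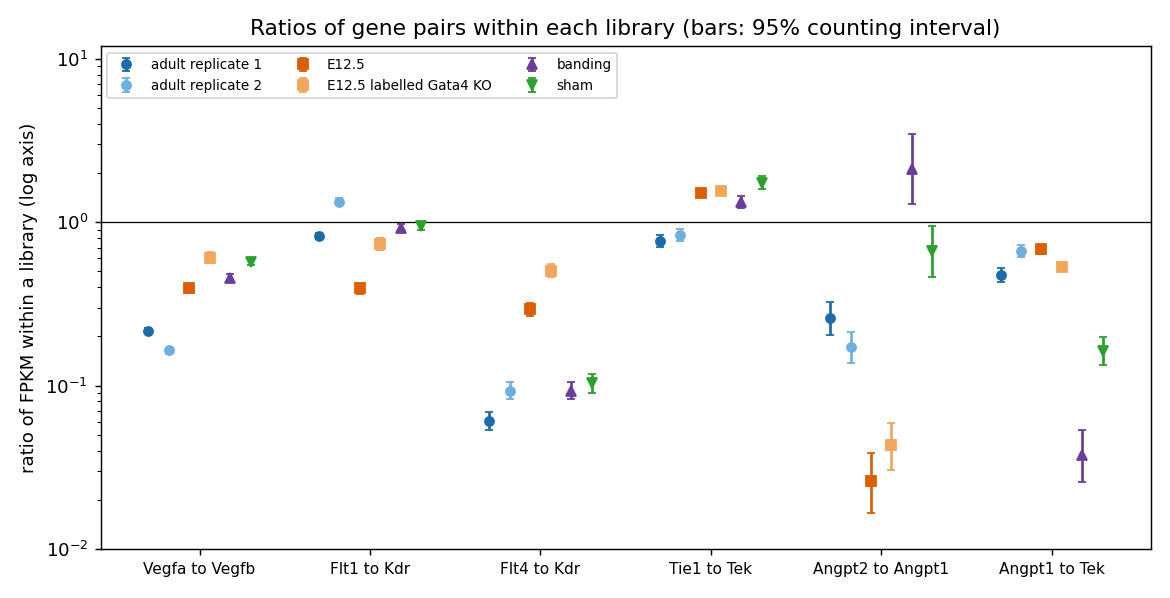
Ratio of FPKM of 6 gene pairs within each library, on a log axis, with exact 95% counting intervals as bars. The Angpt2 to Angpt1 ratio runs from 0.0259 in E12.5 to 2.11 in banding, and the Flt4 to Kdr ratio is highest in both E12.5 libraries.

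In bulk tissue, fewer cells of a type and less RNA per cell cannot be told apart, so the genes were also set against 17 endothelial cell markers (without Tie1). The median level of these markers was 4.44 and 4.57 in adult, 4.80 for E12.5, 5.02 for the library labelled Gata4 KO, 4.16 for sham and 4.29 for banding. Vegfa, which cardiomyocytes also make, lay 2.12 and 1.69 above that median in adult, 0.13 above in E12.5, 2.23 above in banding and 2.45 above in sham. Flt1 lay 1.25 and 1.404 above it in adult, 0.96 for banding and 0.91 for sham, and at -1.85 for E12.5 and -1.58 for the library labelled Gata4 KO. Kdr lay at 1.52 and 0.996 in adult, 1.07 for banding, 0.99 for sham, -0.62 for E12.5 and -1.17 for the library labelled Gata4 KO. The markers themselves differed between adult and E12.5 by -4.24 (Plvap) to 3.70 (Gpr116), and the differences of Flt1 and Kdr lie inside that spread.

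Flt4 held a nearly constant distance from the marker median, between -2.21 and -1.97 in the 6 libraries. Tek lay between -0.30 and 0.25 of it in all 6. The choice of reference mattered for them: against the endothelial cadherin Cdh5 alone, Flt4 ranged from -4.06 in adult replicate 1 to -3.17 in banding. Vegfa, Flt1 and Kdr lay higher in the adult libraries than in E12.5 against Cdh5 as well, with Flt1 at -0.61 and -0.39 in adult and -2.99 in E12.5. Angpt1 lay at -0.81 and -0.39 of the marker median in adult and -0.57 in E12.5, and at -2.41 in sham and -3.64 in banding.

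**Figure D4:**
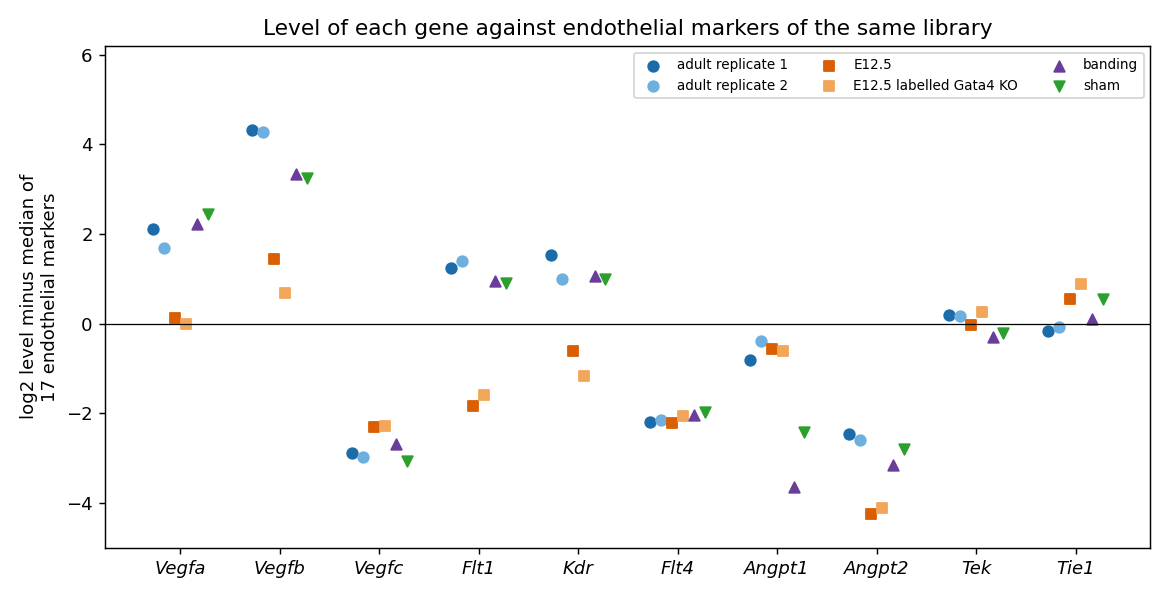
Level of each gene minus the median of 17 endothelial markers in the same library, both as log2(FPKM + 1). Flt4 and Tek stay within -2.21 to -1.97 and -0.30 to 0.25, while Vegfa, Flt1 and Kdr lie lower in both E12.5 libraries than in the other libraries.

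Other genes of the pathway were called in both directions between embryo and adult. The counts of each list here and in the next paragraphs stand beside 71.8% of all genes called, 23.4% higher and 48.4% lower, and nothing particular to a list is read from them. Of 10 further ligands, co-receptors and modifiers tested, 4 rose and 2 fell by limma. Ptprb, the endothelial phosphatase that restrains Tek, rose by 3.48 (SE 0.20, limma adjusted p = 0.00558), the VEGF co-receptor Nrp2 by 2.10 (SE 0.125) and the apelin receptor Aplnr by 1.31 (SE 0.13). Of 10 tested genes of VEGF receptor signal relay and targets, 2 rose and 3 fell. The endothelial nitric oxide synthase Nos3 fell by 1.802 (SE 0.10) and the adaptor Shb by 1.55 (SE 0.21), and the Notch ligand Dll4 rose by 0.61 (SE 0.13). Of 18 genes of hypoxia sensing and hypoxia-inducible factor targets, which include regulators of Vegfa, 7 rose and 6 fell. Epas1, the hypoxia-inducible factor of endothelium, rose by 4.42 (SE 0.06), the oxygen sensor Egln3 rose by 2.74 (SE 0.12) and the glucose transporter Slc2a1 fell by 4.598 (SE 0.20). Among the genes counted as fallen, Svep1 of the first list and Car9 of the hypoxia list passed the filter on low genes only through E12.5. Those calls support nothing further.

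The endothelial lists moved no more evenly. Of 18 endothelial cell markers 6 rose and 7 fell, Tie1 among the latter. The orphan receptors Gpr116 and Eltd1 rose by 3.70 (SE 0.17) and 3.13 (SE 0.15), and Plvap, the diaphragm protein of fenestrated endothelium, fell by 4.24 (SE 0.09). Of 16 tested endothelial transcription factors 3 rose and 6 fell, with the forkhead factors Foxc2 and Foxc1 lower by 3.15 (SE 0.08) and 2.88 (SE 0.28) and Tal1 lower by 2.58 (SE 0.12). Of 5 endocardial markers 4 fell, among them Hapln1 by 2.497 (SE 0.06) and Npr3 by 2.39 (SE 0.17). Of 4 tested lymphatic markers Mmrn1 and Lyve1 rose, by 1.12 (SE 0.09) and 0.96 (SE 0.21), and Pdpn, which is not restricted to lymphatic cells, fell by 3.31 (SE 0.11). Foxc2, Hapln1 and Pdpn passed the filter on low genes only through E12.5. Mmrn1, and Sox17 among the transcription factors that rose, passed it only through the adult libraries. As for Angpt2, the calls of all these filter-bound genes support nothing further.

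Of 10 pericyte and smooth muscle markers, cells that are a source of Angpt1, 6 rose and 3 fell. Rgs5 rose by 6.21 (SE 0.08) and Myh11 by 5.51 (SE 0.17), both nearly at 0 in E12.5, and Cnn1 fell by 4.31 (SE 0.13). Rgs5 and Myh11 passed the filter on low genes only through the adult libraries, so their calls support nothing further. Markers of other cells moved with age too: 6 of 8 cardiomyocyte markers rose and none fell, 2 of 8 fibroblast and mesenchyme markers rose and 4 fell, all 6 tested red cell markers fell, and none of 4 tested macrophage markers was called. Their part in the differences of the VEGF and angiopoietin genes was not tested. The red cell markers tested, other than Alas2, passed the filter only through E12.5, so those calls support nothing further.

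Banding was compared with sham to ask whether pressure load alters these genes. With 1 library each there is no replicate check and no test. Genes were called by the same rule of size. None of the 6 genes of the family at that level was called, against 4.82% of all 5108 genes at that level, 3.19% higher and 1.62% lower. Vegfa was at 6.52 in banding against 6.61 in sham, a ratio of FPKM of 0.937 (95% counting interval 0.898 to 0.978). Vegfb stood at 7.64 and 7.41 (ratio 1.17, 1.11 to 1.23), Flt1 at 5.25 and 5.07 (1.13, 1.08 to 1.20), Kdr at 5.36 and 5.15 (1.16, 1.10 to 1.23) and Tek at 3.99 and 3.95 (1.03, 0.936 to 1.13). Tie1, like Vegfa, lay lower in banding, at 4.38 and 4.72 (ratio 0.783, 0.721 to 0.851).

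Among the genes of the family below 5 FPKM, Angpt1 differed most. It held 32 reads in banding and 116 in sham, levels of 0.64 and 1.75, and was 4.2-fold lower in banding (95% counting interval 2.82 to 6.41). Without a minimum FPKM it was the only 1 of the 10 genes past 2-fold, where 9.26% of all genes were lower by that rule. That count lies near the share of all genes, so nothing particular to Angpt1 is read from it. Vegfc held 54 and 26 reads (1.61 against 1.10, ratio 1.79, 1.10 to 2.98), Angpt2 held 41 and 47 (1.13 against 1.36, ratio 0.752, 0.483 to 1.17), and Flt4 held 305 and 251 (2.24 against 2.19, ratio 1.05, 0.884 to 1.24). The counting intervals of Angpt2 and Flt4 include 1.

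Few other vascular genes were called between banding and sham, beside 4.82% of all genes at 5 FPKM. At that share a short list may hold no call, so its absence is not read as a result. No endothelial marker of 16 at 5 FPKM was called, with a median difference of -0.14 against 0.06 over all genes at that level. No pericyte or smooth muscle marker of 7 was called (median 0.22). The placental growth factor Pgf, another Flt1 ligand, was lower at 1.88 against 2.70, with 59 and 104 reads. Pgf reached 5 FPKM only in sham, where it is high, so its call supports nothing further. Rcan1, a target of calcineurin that VEGF also induces, was higher at 4.69 against 2.64. None of 14 hypoxia genes, 7 endothelial transcription factors, 8 cardiomyocyte markers or 2 macrophage markers passed, and neither did the single endocardial, lymphatic and red cell marker at that level. Of 7 fibroblast and mesenchyme markers 6 were higher in banding, and the summed FPKM of the list was 748 in banding and 283 in sham. Among the 6, Postn and Lum reached 5 FPKM only in banding, where they are high, so their calls support nothing further.

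E12.5 and the library labelled Gata4 KO were then set side by side, although Gata4 itself was not lower there, so the values below compare these libraries and not a shown loss of Gata4. None of 9 family members at 5 FPKM was called by size, against 2.86% of all 8218 genes at that level, 1.85% higher and 1.01% lower. The Tie receptors and Flt1 lay higher in the labelled library and Vegfb and Kdr lower. Tie1 stood at 5.89 against 5.35 (ratio of FPKM 1.47, 95% counting interval 1.4 to 1.54), Tek at 5.27 against 4.76 (1.44, 1.36 to 1.51) and Flt1 at 3.43 against 2.95 (1.45, 1.33 to 1.59). Flt4 stood at 2.96 against 2.59 (1.34, 1.2 to 1.5) and Angpt1 at 4.397 against 4.23 (1.13, 1.05 to 1.21). Vegfb stood at 5.70 against 6.24 (0.685, 0.637 to 0.737) and Kdr at 3.84 against 4.18 (0.779, 0.725 to 0.836). Vegfa (5.003 against 4.93) and Vegfc (2.73 against 2.5) had counting intervals that include 1. Angpt2, with 38 and 24 reads, stood at 0.90 against 0.55 (1.87, 1.09 to 3.26).

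Kdr and Flt1 thus lay on opposite sides in these 2 libraries although both mark endothelium. The adult replicates parted in the same way, with Kdr at 5.97 and 5.56 and Flt1 at 5.70 and 5.97. The contrast therefore cannot be told apart from a difference between replicates. Endothelial markers lay higher in the labelled library in 13 of 15 cases, with a median of 0.32 against -0.05 over all genes at 5 FPKM, and none was called. Their summed FPKM was 764 in the labelled library and 609 in E12.5. Of 7 pericyte and smooth muscle markers 3 were higher by size, Acta2 by 1.27, Pdgfrb by 1.13 and Tagln by 1.09. So were 5 of 7 fibroblast markers, 4 of 5 red cell markers and 1 of 3 macrophage markers, and 1 of 8 cardiomyocyte markers, Tnni3, was lower. The fibroblast marker Pdgfra and the macrophage marker C1qa reached 5 FPKM only in the labelled library, where they are high, so those calls support nothing further. The part of these cell type markers in the differences of the VEGF and angiopoietin genes was not tested.

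Sham was set beside unoperated adult and beside E12.5 to see whether the adult levels recur in another library of heart without banding. These comparisons share libraries with those above and are not independent of them. Against E12.5, sham was higher by size for Vegfa (6.61 against 4.93, 3.29-fold in FPKM), Vegfb (7.41 against 6.24, 2.27-fold), Flt1 (5.07 against 2.95, 4.84-fold) and Kdr (5.15 against 4.18, 2.01-fold). These 4 of 8 genes at 5 FPKM stand beside 72.0% of all genes called, 10.9% higher and 61.0% lower in sham. The same 4 were higher under the 3 other scalings tried. Angpt1 was lower in sham, 7.58-fold (95% counting interval 6.25 to 9.17). It reached 5 FPKM only in E12.5, where it is high, so its call supports nothing further. Tie1 stood at 4.72 in sham and 5.35 in E12.5, but its difference of -0.63 turned to 0.36 after median-of-ratios scaling, as Tek's turned from -0.81 to 0.17. Vegfc held 26 reads in sham and 184 in E12.5 and was under the 5 FPKM minimum. It lay 4.07-fold lower as deposited (2.69 to 6.37, counting error only), and its difference of -1.397 became -0.57 after upper-quartile and -0.697 after median-of-ratios scaling.

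Against the adult pair, 2 of 7 genes at 5 FPKM were lower in sham by size, Angpt1 reaching 5 FPKM only through the adult libraries where it is high, where 50.2% of all genes were called, 43.7% lower and 6.49% higher. After median-of-ratios scaling 23.8% of all genes were lower and 15.4% higher. Angpt1, at 1.75 against adult levels of 3.63 and 4.18, was 6.06-fold lower (5 to 7.35), and remained past the rule under the 3 other scalings. Since it reached the minimum only through adult, its call supports nothing further. Vegfb, at 7.41 against 8.76 and 8.85, was 2.64-fold lower, and after median-of-ratios scaling its difference of -1.395 became -0.89 and no longer passed. Flt1, Kdr and Tek lay lower by 0.76, 0.61 and 0.74, close to the median of all genes at that level (-0.74), and Kdr turned to 0.09 after upper-quartile scaling. Vegfa, at 6.61 against 6.56 and 6.26, and Tie1, at 4.72 against 4.29 and 4.49, lay above both adult libraries. After upper-quartile scaling Tie1 was higher in sham by 1.03 and passed the rule. Of 8 pericyte and smooth muscle markers at 5 FPKM, 5 were lower in sham by size, beside the 43.7% of all genes, and 1, Notch3, lay higher by 0.40. Kcnj8, among the 5, reached 5 FPKM only through adult, so its call supports nothing further. The summed FPKM of the list was 140 in sham and 164 in banding against 390 and 409 in adult. From sham to banding this sum lay higher, but the median level of the list went from 3.86 to 3.61, and Angpt1 lay lower. The part of these markers in the low Angpt1 was not tested.

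Across the 6 libraries, the genes with profiles most like Vegfa, Kdr and Tek were found by the root mean square distance between log2(FPKM + 1) profiles centred on each gene's mean, among 8606 genes. They were Setd6 (0.07), Myct1 (0.11) and Ppfibp2 (0.12) for Vegfa, Tmem69 (0.07), Fnip1 (0.13) and Strn3 (0.16) for Kdr, and Mrpl17 (0.08), Frmd4a (0.09) and Spty2d1 (0.10) for Tek. Myct1, expressed in endothelium, stood at 3.35 and 3.08 in adult, 1.48 for E12.5, 1.85 for the library labelled Gata4 KO, 3.28 for sham and 3.38 for banding. With so many genes searched over 6 libraries, the close profiles are a description only.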

How the data were processed

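Poly(A) RNA-seq of mouse heart was taken from 6 libraries of a series of 45 samples, and the other 39, chromatin libraries, were not analysed here. Each library began from 2 µg of RNA from a pool, poly(A) selected and primed with random hexamers, per the labels' protocols. Per the submitters' processing notes the tools of the series include CASAVA 1.8.2, TopHat 1.4 and HTSeq 0.5.3 and the build is mm9; which tool made these files, and whether counting used strand, no source used here says. The values deposited by the authors are log2(FPKM + 1), a scale read from the values. Whole reads were recovered for 98.81% of 98043 values above 0, within 0.001 of a read, from whole-number ratios between libraries; genes seen in 1 library were not recoverable. The planned fold changes were taken on this log2 scale as deposited, which understates the change of low genes.

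The adult against E12.5 fit used limma 3.58.1 under R 4.3.3 (mean-variance trend, 1 residual degree of freedom) on genes reaching 1 FPKM in any of its 3 libraries. Other comparisons used the rule of size (2-fold, 5 FPKM), with no test. The scripts were tested on simulated data. Members, gene lists (13, with 138 entries) and tests were chosen with earlier results of these data known. Named genes were the members, Gata4, up to 3 called genes per list, and the 3 nearest profiles to Vegfa, Kdr and Tek. Alternatives were another pseudocount, no filter, 3 other scalings, no trend, both E12.5 libraries as one group, 1.5-fold, and leaving out each adult library.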

Additional observations from a re-analysis of the deposited data

How the results depend on the processing

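Of 90 alternative values for the 10 genes in adult against E12.5, 82 kept their sign. Those that turned were Flt4 (0.13, 0.14 and 0.011) and Tek (0.40, 0.42 and 0.26) after upper-quartile scaling, median-of-ratios scaling and scaling without the 50 highest genes, and Angpt1 (0.13 and 0.15) after the first and second of these. Leaving out either adult library left the sign of all 10 and gave 1.33 to 1.64 for Vegfa, 2.74 to 3.02 for Flt1, 1.38 to 1.78 for Kdr and -0.601 to -0.055 for Angpt1, with no residual degrees of freedom and so no test. No paired analysis was possible because only the adult group had numbered replicates.

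The counts by size moved more. With no minimum FPKM, 1904 genes were higher and 1589 lower in banding than in sham, with 1 of the 10 genes lower. In the library labelled Gata4 KO against E12.5 these were 2171 and 1346, in sham against adult 3653 and 5453, and in sham against E12.5 3731 and 9304, with 2 of the 10 genes lower there. At 1.5-fold the counts were 484 and 264 for banding, 470 and 379 for the library labelled Gata4 KO, and 746 higher in sham than in adult. At that fold 5 of the 10 genes were lower in sham than in adult and 3 lower in sham than in E12.5. Already at 2-fold, 43.7% and 61.0% of all genes were lower in these comparisons, so nothing particular to the 10 genes is read from those counts. After upper-quartile scaling 1496 genes were higher and 1315 lower in sham than in adult, after median-of-ratios scaling 1108 and 1719, and without the 50 highest genes 1550 and 1224. Under each of these, 1 of the 10 genes was lower, and 1 was higher under the first and last. For sham against E12.5 the same scalings gave 2510 and 2452, 2148 and 2805, and 2337 and 2681. Without the 50 highest genes, 164 genes were lower in banding and 53 in the library labelled Gata4 KO. As deposited, the counts were 163 and 83 for banding, 152 and 83 for the library labelled Gata4 KO, 433 and 2915 for sham against adult, and 935 and 5215 for sham against E12.5. A pseudocount of 1 left the sign of all 48 ratios within libraries. Against Cdh5 or Pecam1 alone, 95 of 120 values kept the sign they had against the marker median.

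With 24 to 92 reads a library for Angpt2, 26 to 189 for Vegfc and 32 to 116 for Angpt1 in banding and sham, differences of these genes are the least precise. Groups of 1 library carry no replicate error, and the adult pair differed by more than counting error for Flt1 relative to Kdr.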

Other observations

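Shares of called hypoxia genes in sham against unoperated adult heart lay near those of all genes, and single genes are given as values. Of 14 genes of the hypoxia list at 5 FPKM, 7 were lower and 1 higher in sham by size, where 43.7% and 6.49% of all genes were (23.8% and 15.4% after median-of-ratios scaling, under which the list was not counted), and the median difference was -1.11 against -0.74 over all genes. Egln1, a further oxygen sensor, stood at 3.78 in sham and 6.40 and 6.26 in adult, Bnip3, a mitophagy gene, at 3.29 against 5.93 and 5.72, and the oxygen sensor Egln3 at 2.48 against 4.89 and 4.74. Egln3 and Hif1a, both among the 7, reached 5 FPKM only through adult, so their calls support nothing further. The gene called higher was the oxygen sensor Egln2, at 4.19 against 3.065 and 3.23. In sign, 3 of the 14 genes lay higher in sham and 11 lower. Vegfa, a target of that pathway, stood at 6.61 against 6.56 and 6.26. With 1 sham library these differences have no replicate check.

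Endothelial markers lay on both sides between sham and adult. Egfl7 stood at 6.70 in sham and 4.44 and 4.47 in adult, 4.92-fold higher in FPKM, while Eltd1 stood at 3.31 against 5.13 and 4.90 and S1pr1 at 3.52 against 4.61 and 5.24. Of 16 such markers at 5 FPKM, 1 was higher and 3 lower by size, beside 6.49% and 43.7% of all genes.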
